A study of Mus musculus with 77 samples.

Results

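The comparison covered exposed mice only: 13 retina arrays of the OIR group on postnatal day 28 (P28 hyperoxia) were set against 13 of the same group on P17 (P17 hyperoxia), out of 77 arrays in the series. C57BL/6 litters had breathed 75% oxygen from P7 until P12 and room air thereafter, so both groups carried the same exposure and differed in age. Each array held RNA of the whole retina, with both retinas of 1 mouse pooled, hybridized together with a universal mouse reference RNA. The control group, kept in room air throughout (P17 normoxia, 12 arrays; P28 normoxia, 14 arrays), is used below only to show how a change or a remaining difference in exposed mice compares with unexposed mice of the same age. The litter of each mouse was not given, so mice of 1 litter could not be told apart from mice of different litters.

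In this model the growing retinal vessels are lost during high oxygen. After return to room air the underperfused inner retina becomes hypoxic, stabilizes hypoxia-inducible factors (HIF) and releases vascular growth factors, and vessels sprout back into the retina and, as tufts, out of it. The tufts are at their height around P17 and later regress, while the retina itself goes on maturing. A change between P17 and P28 in exposed mice therefore holds regression and maturation together, and in whole retina fewer cells of a type and less RNA per cell cannot be told apart.

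The values are log2 ratios of retina over reference, and a difference of 1 is 2-fold. The labels assign the retina to Cy5, but rod genes were brighter in Cy3 on 26 of 26 arrays (log2 Cy3 over Cy5 of at least 4.22 for *Sag*, *Gnat1* and *Pde6b*), so Cy3 was taken as the retina and every sign below is opposite to the one the labels would give. These rod genes, which define photoreceptors, also place the RNA in retina.

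The arrays of the 2 days differed in brightness. The mean net retina signal ran from 71.9 through a median of 121 to 781 on P17 and from 75.0 through 991 to 1481 on P28. Values fell on either side of 300: 11 P17 and 2 P28 arrays lay below (dim), 2 P17 and 11 P28 arrays above (bright), and the 13 bright arrays were all read in 1 of 4 scan sessions. Probes well above background numbered from 15895 to 29993 on P17 and from 16887 to 34081 on P28. Only 1 of 11 slides held both days, with 2 P17 arrays and 1 P28 array. Even the reference RNA, the same on all arrays, differed between the days at 4174 of 55681 probes (7.5%), and at 87 (0.156%) once signal class was a block. At an unadjusted p under 0.05 (limma) the numbers were 10371 and 8264, so the block was not shown to remove the technical difference. Day and brightness thus overlapped heavily. Each comparison was run pooled, as planned, and again with signal class as a block, an alternative added after the brightness was seen, and "rose" and "fell" are used below for genes called in both fits with the same sign.

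**Figure D1:**
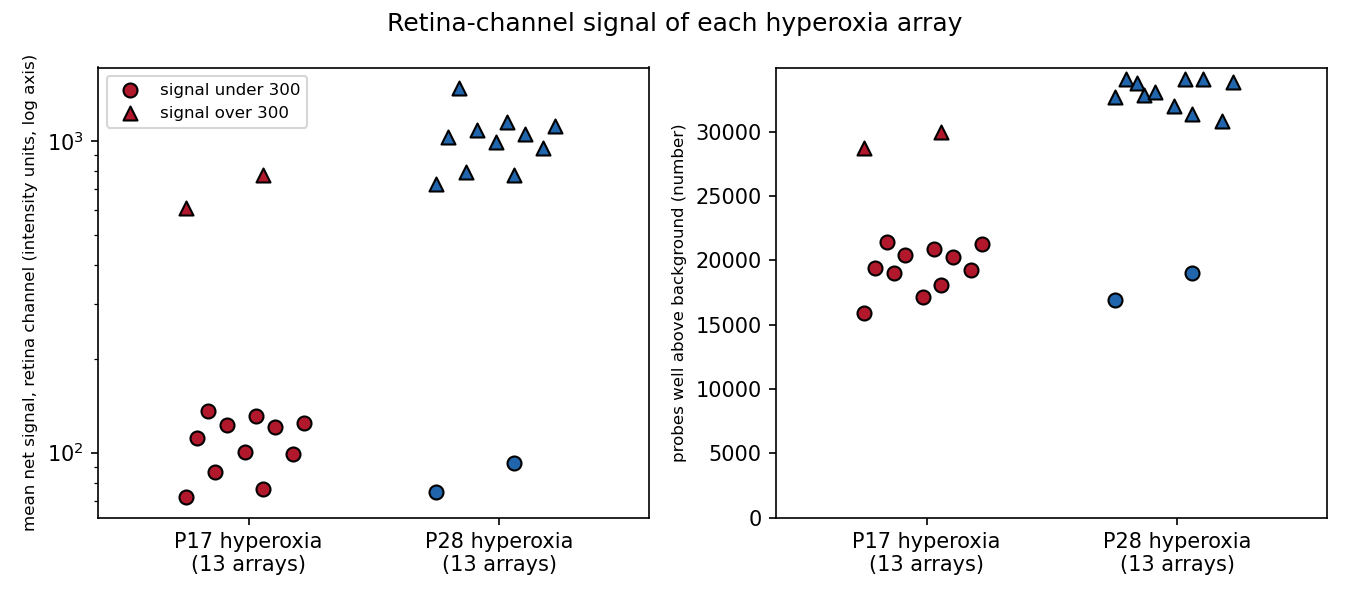
Mean net retina-channel signal (left, log axis, intensity units) and number of probes well above background (right) for each of the 26 hyperoxia arrays. Circles are arrays with a signal under 300 and triangles arrays over 300: 11 of 13 P17 arrays are circles and 11 of 13 P28 arrays are triangles.

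Pooled, 22369 of 55681 probes (40.2%) differed between P28 and P17 hyperoxia at an adjusted p under 0.05, 11853 higher and 10516 lower on P28. With signal class as a block 5244 probes (9.42%) differed, 2177 higher and 3067 lower. Of 21154 genes, each represented by its brightest probe, 2152 (10.2%) passed both fits with the same sign: 1178 (5.57%) rose and 974 (4.6%) fell. At a change of at least 2-fold in both fits there were 46 falls (0.217%) and 5 rises (0.0236%). The ranges of the 13 P17 and 13 P28 arrays did not overlap at all for 0.846% of genes, 0.548% lower and 0.298% higher on P28. In the pooled comparison alone, which the counts per list below call pooled, 29.9% of genes were higher and 22.1% lower. Signs below are relative to the loess scale: when arrays were centred on the median of all spots instead, the median change of genes detected on all 26 arrays moved from 0.13 to 1.65, and 44 named genes turned sign, 43 of them staying on the same side of that median.

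The clearest falls were in vascular, perivascular and matrix genes. *Cd248*, endosialin of pericytes and activated stroma, had the second largest fall of the pooled comparison by the naming rule. Its log2 ratio ran from -0.67 through a median of 0.08 to 0.61 on P17 and from -3.74 through -2.99 to -1.50 on P28. All 13 P28 arrays lay below the lowest P17 array. The 2 dim ones stood at -1.50 and -1.82 and the bright ones at -2.66 or lower, so the fall was smaller within the dim arrays. The change was -2.89 ± 0.21 (SE, n = 13 and 13 arrays; limma, adjusted p = 8.88e-10), and -2.41 with the class block (adjusted p = 2.04e-06).

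Of 14 measured tip cell and sprouting genes, 6 fell and 0 rose in both fits, with a median change of -0.75 pooled and -0.27 with the block (all genes 0.01 and -0.01). *Esm1*, endocan, secreted by sprouting tip cells, ran from -0.47 through 0.22 to 1.27 on P17 and from -2.72 through -2.18 to -0.34 on P28. The ranges overlapped by 1 array: 12 of 13 P28 arrays lay below every P17 array. Its change was -2.22 ± 0.22 (limma, adjusted p = 1.34e-07), or -1.80 with the block. The 2 dim P28 arrays stood at -0.34 and -0.76 and the bright ones at -1.81 or lower, so this fall too was smaller within the dim arrays. *Cd34*, a surface sialomucin of sprouting endothelium, went from between -1.31 and -0.30 (median -0.76) to between -3.44 and -2.13 (median -2.89). The 2 ranges did not meet, and the change was -2.09 (block -1.84). *Apln*, the apelin peptide of tip cells, went from -0.10 to 2.02 (median 0.63) down to -1.12 to -0.27 (median -0.77), again with no overlap and a change of -1.37 (block -1.44). On P28 *Esm1* was well above background on 6 of 13 arrays, so its P28 values are low-signal ones. *Pdgfb*, with which endothelium recruits pericytes, fell by 1.24 on the log2 scale (block -1.01). *Mcam*, an adhesion molecule of the same list, had a pooled change of -1.44 that was not called with the block (-0.13, adjusted p = 0.832).

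Among 20 pan-endothelial genes, 9 fell and 0 rose in both fits (median -0.10 pooled, -0.51 with the block). *Cd93*, an endothelial surface receptor, ran from 2.57 to 3.53 (median 3.07) on P17 and from 0.48 to 1.48 (median 1.13) on P28. All P28 arrays lay below all P17 arrays, and the change was nearly equal within the dim arrays (-2.25) and the bright arrays (-2.02). The pooled value was -1.93 ± 0.11 (limma, adjusted p = 3.41e-11). *Egfl7*, a matrix protein that endothelium secretes, fell by 1.37 on the log2 scale (block -1.47), also without overlap. *Kdr* and *Flt1*, the VEGF receptors, were higher on P28 in the pooled fit (0.90 and 0.82) but not with the block (-0.05 and 0.10, adjusted p = 0.928 and 0.509). *Kdr* turned with the processing, at -1.31 on the deposited values (limma, adjusted p = 0.000157) and -0.50 with a background offset of 0 (adjusted p = 0.0197), while *Flt1* was at 0.56 and 0.52.

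**Figure D2:**
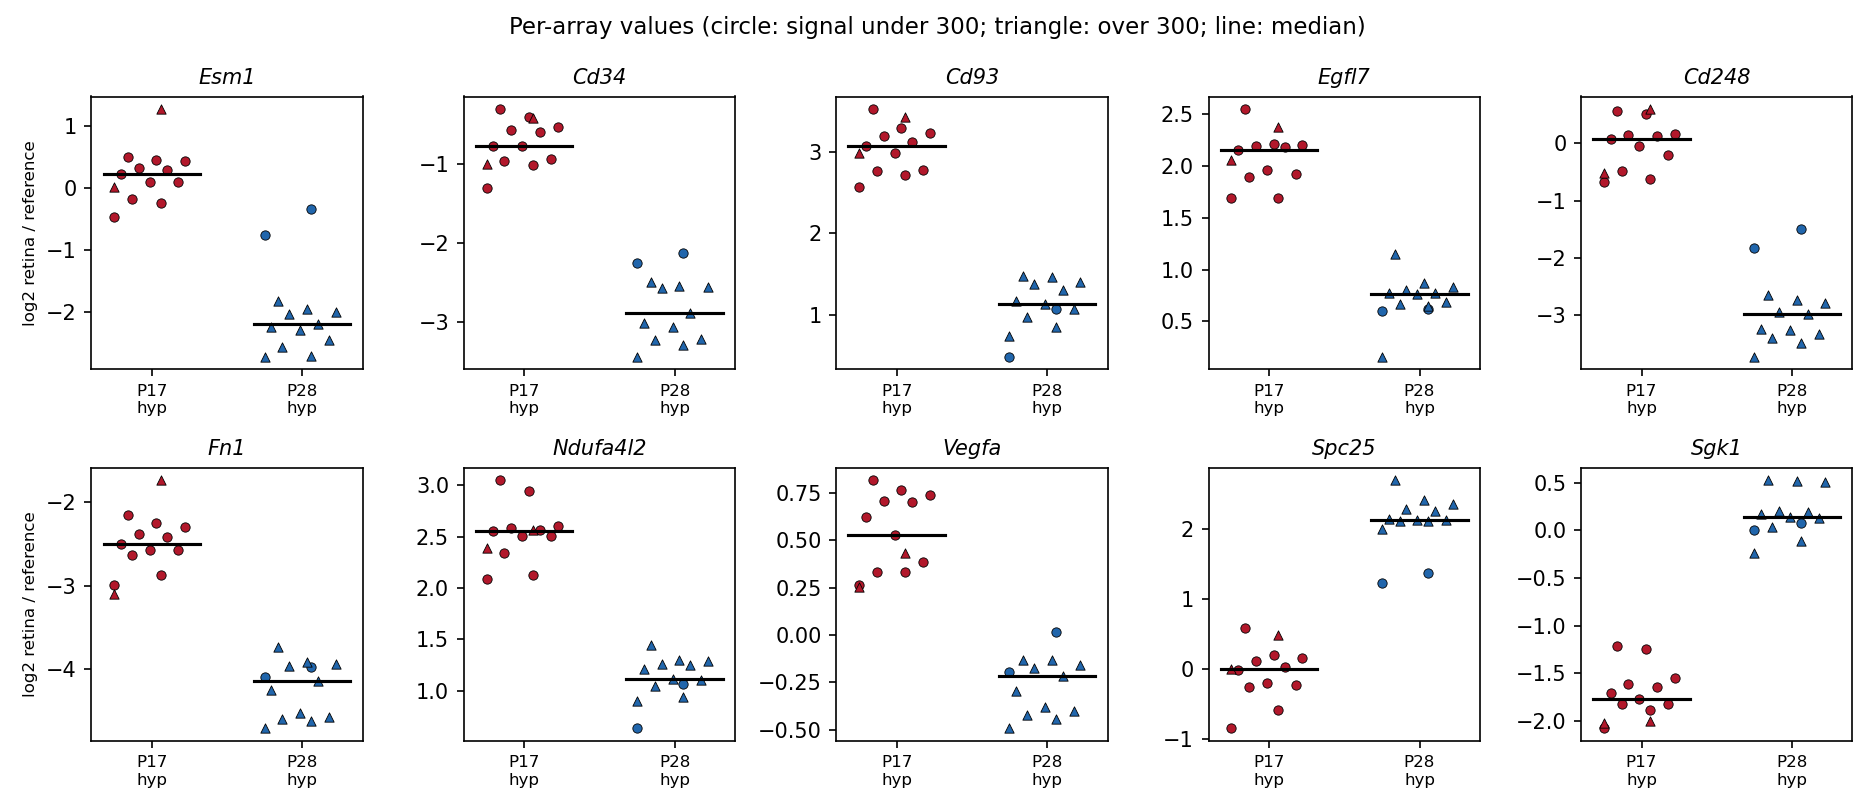
Log2 retina over reference of 10 genes on each P17 (red) and P28 (blue) hyperoxia array, with circles for arrays under a signal of 300, triangles for arrays over it and a line at the median. The 2 dim P28 arrays of *Cd93*, *Egfl7* and *Fn1* lie within or below the bright P28 arrays, while those of *Esm1* and *Cd248* lie above the bright P28 arrays, and 1 of *Esm1* also above the lowest P17 array.

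Mural cell genes followed. Of 10 pericyte genes 5 fell (median -0.66, block -0.43), and of 8 smooth muscle contractile genes 4 fell (median -1.04, block -0.53), with 0 rises in either list. Within the dim arrays the median changes were -0.27 for the pericyte and -0.12 for the smooth muscle list. Within the bright arrays they were -0.62 and -0.87. *Higd1b*, a pericyte marker, ran from 1.24 to 2.44 (median 1.66) on P17 and from 0.21 to 1.0 (median 0.75) on P28, with no overlap, and its change was -1.03 (block -1.41; -1.39 within dim and -1.43 within bright arrays). *Cspg4*, the NG2 proteoglycan, and *Notch3* changed by -1.24 and -1.18 (block -0.62 and -0.79). *Acta2*, smooth muscle actin, and *Tagln*, transgelin, changed by -1.84 and -1.68 pooled and by -0.74 and -0.95 with the block. *Anpep*, *Actg2* and *Tpm2* were lower in the pooled fit (-0.92, -1.57 and -1.08) and not called with the block (-0.09, -0.52 and -0.29).

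Of 21 matrix genes 14 fell and 0 rose, with a median of -1.18 pooled and -0.90 with the block. *Fn1*, fibronectin, ran from -3.11 to -1.74 (median -2.50) on P17 and from -4.70 to -3.74 (median -4.14) on P28. Its ranges did not overlap, and it changed by -1.73 ± 0.13 (limma, adjusted p = 2.24e-09; block -1.68). *Serpinh1*, the collagen chaperone HSP47, fell by 2.23 on the log2 scale (block -1.78). *Col1a1* and *Col3a1*, fibrillar collagens, changed by -2.46 and -1.81 pooled and by -0.96 and -0.92 with the block. Their dim arrays differed by only -0.10 and -0.18, against -1.83 and -1.66 within the bright arrays. Outside the lists, *Msn* (moesin), *Nes* (nestin), *Tagln2* and *Hspg2* (perlecan) changed by -2.55, -2.27, -2.17 and -1.96, and no P28 array of these 4 genes reached the lowest P17 array. *Tagln2* and *Hspg2* were named after their values were seen, as large falls of the block fit.

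Some signals that drive vessel growth were lower too. Of 23 vascular ligands and receptors 5 fell and 0 rose, but the list's median was near that of all genes (-0.08, block -0.09). Of 22 hypoxia response genes, 8 fell and 0 rose (median -0.44, block -0.39). Within the dim arrays the median change of these 22 was -0.03, and within the bright arrays -0.55. *Vegfa*, the main growth factor for endothelium, ran from 0.26 to 0.82 (median 0.53) on P17 and from -0.49 to 0.01 (median -0.22) on P28. The ranges did not meet, and the change was -0.79 ± 0.07 (limma, adjusted p = 1.76e-08), -0.66 within dim and -0.64 within bright arrays. *Ndufa4l2*, a mitochondrial HIF target, ran from 2.09 to 3.05 (median 2.55) and then from 0.63 to 1.44 (median 1.12). It fell by 1.41 on the log2 scale (block -1.50), without overlap. *Adm*, adrenomedullin, a vasodilator peptide, changed by -2.0 (block -1.37), with -0.41 within the dim and -2.33 within the bright arrays. *Stc2* changed by -1.07 (block -0.45). *Egln3*, a HIF prolyl hydroxylase, was at -1.43 pooled and was not called with the block (-0.41, adjusted p = 0.211). When arrays were centred on the median of detected spots in place of loess, the hypoxia list's median lay 0.39 above that of all genes. With the block it lay 0.08 below. The all-gene median was itself -0.86 under this centring and -0.21 with the block, so the hypoxia list's median stayed negative in both. Genes well above background on all arrays of the comparison had a median of 0.13 under this centring without the block, above that of the hypoxia list.

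ACGTG is a form of the core motif that HIF binds, and other forms were not searched. In the 250 bases before the RefSeq start (GRCm38.p6), ACGTG or its reverse complement CACGT stood in at least 1 window of 13 of 19 hypoxia genes with a window (68.4%), a list made of known HIF targets, against 18.5% of 27025 genes. Among the 11 tip cell genes with a window, 0 held ACGTG or CACGT. Windows of 3 hypoxia genes that fell and hold ACGTG are shown to let the reader see its place. That of *Adm*, which fell and holds neither ACGTG nor CACGT there, is shown too. All windows are written in the direction of the gene, with the motif in capitals.
*Ankrd37*, chr8:45999851-46000100, minus strand: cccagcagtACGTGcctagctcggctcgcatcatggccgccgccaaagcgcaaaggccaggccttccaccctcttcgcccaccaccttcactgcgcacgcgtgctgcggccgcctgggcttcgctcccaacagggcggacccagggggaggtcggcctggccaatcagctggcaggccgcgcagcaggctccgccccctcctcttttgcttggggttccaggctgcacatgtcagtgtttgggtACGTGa
*Ddit4*, chr10:59951771-59952020, minus strand: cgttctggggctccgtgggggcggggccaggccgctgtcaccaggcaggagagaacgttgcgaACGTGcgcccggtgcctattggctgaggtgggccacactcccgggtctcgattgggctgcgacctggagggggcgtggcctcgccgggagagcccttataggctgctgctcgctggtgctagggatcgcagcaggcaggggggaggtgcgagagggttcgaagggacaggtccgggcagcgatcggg
*Slc2a1*, chr4:119108495-119108744, plus strand: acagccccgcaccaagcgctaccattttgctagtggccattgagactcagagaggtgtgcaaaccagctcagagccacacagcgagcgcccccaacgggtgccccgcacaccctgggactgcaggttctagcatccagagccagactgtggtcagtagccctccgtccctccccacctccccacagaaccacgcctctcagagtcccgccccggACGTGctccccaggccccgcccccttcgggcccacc
*Adm*, chr7:110627407-110627656, plus strand: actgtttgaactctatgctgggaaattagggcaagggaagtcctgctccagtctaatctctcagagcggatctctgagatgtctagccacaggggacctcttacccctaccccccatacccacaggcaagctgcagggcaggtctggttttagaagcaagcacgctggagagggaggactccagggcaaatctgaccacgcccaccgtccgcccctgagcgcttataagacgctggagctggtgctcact

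*Ankrd37* held the motif 241 and 6 bases before its start and changed by -0.41 (block -0.48). *Ddit4*, an inhibitor of growth signaling, held it at 187 bases and changed by -0.45 (block -0.51). *Slc2a1*, the glucose transporter GLUT1, held it at 36 bases and changed by -0.28 (block -0.55). For *Ankrd37*, *Ddit4* and *Slc2a1* the difference from the change in normoxia was not called without the block. Under centring on detected spots *Ddit4* and *Slc2a1* turned to 0.09 and 0.13, while *Ankrd37* kept its sign. The marked letters are a description of the windows and no test of HIF binding.

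Of 18 glycolysis genes 7 fell and 2 rose. *Slc16a3*, the lactate exporter MCT4, changed by -1.24 (block -0.86) and *Eno1* by -1.26 (block -0.48). *Gapdh* and *Aldoa* were lower in the pooled fit (-1.20 and -1.15) and not called with the block (adjusted p = 0.0991 and 0.0669). The side of this list's median turned with the scaling, from 0.44 below the median of all genes to 1.05 above it under centring on detected spots.

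Several glial and stress genes fell as well. *Vim*, vimentin of glia and vessels, ran from -2.43 to -1.38 (median -1.87) on P17 and from -3.78 to -2.65 (median -3.44) on P28. It fell by 1.46 on the log2 scale (block -1.31), without overlap. *Timp1*, an inhibitor of matrix proteases, and *S100a6* fell too (-1.62 and -1.35), making 3 of 12 reactive glia genes, and *Cd44* (-1.16) was not called with the block. *Stat3*, the transcription factor downstream of gp130 cytokines, ran from 0.76 to 2.08 (median 1.25) and then from -1.07 to 0.68 (median -0.14). That was a change of -1.54 (block -1.20), with no overlap. Its feedback inhibitor *Socs3* changed by -1.14 (block -0.82) and *Bcl3*, a partner of NF-kappaB, by -1.28 (block -1.35). *Myc* was at -1.49 pooled but -0.32 with the block. In the gp130-STAT3 list 3 of 11 genes fell and 1 rose, with a median change of -0.11 within the dim and -0.91 within the bright arrays. *Mt1* and *Mt2*, the zinc-binding metallothioneins, fell by 1.19 and 1.44 on the log2 scale (block -1.23 and -1.35), and *Mt3* (-0.43) was not called with the block. Under centring on detected spots the metallothionein median lay 0.11 above that of all genes, and at -0.56 relative to it with the block. The all-gene median was -0.86 under this centring, so the metallothionein median stayed negative. *Hmox1*, heme oxygenase, changed by -1.90 (block -1.55) and *Atf5*, a stress-induced transcription factor, by -1.11 (block -0.92).

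A globin gene of red blood cells fell as well. *Hba-a2*, an alpha globin, ran from 2.88 to 6.02 (median 4.32) on P17 and from 2.28 to 3.41 (median 2.79) on P28, and changed by -1.73 (block -1.0, adjusted p = 0.0444). Of 7 red blood cell genes 2 fell. The 2 alpha globin copies are near-identical, and their probes may share signal. The part of blood left in the vessels in any vascular fall was not tested.

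Microglia and macrophage genes mostly did not keep a call: 10 of 17 were lower in the pooled fit, and 2 in both. *Itgam*, *Laptm5* and *Cd14* had pooled changes of -2.19, -1.28 and -1.19, which became -0.54, -0.35 and 0.17 with the block. *Cd68* changed by -1.17 (block -0.45, called). In the cell division list 21 of 24 genes were lower in the pooled fit, and 4 in both. *Mki67* and *Birc5* changed by -2.41 and -2.19 (block -1.07 and -0.82), with -0.22 and 0.04 within the dim arrays, and *Rrm2* (-2.19) was not called with the block.

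*Spc25*, a subunit of the Ndc80 complex of the kinetochore, was the 1 gene of that list that rose. It ran from -0.84 through 0.0034 to 0.59 on P17 and from 1.22 through 2.12 to 2.69 on P28. All 13 P28 arrays lay above all P17 arrays, and the change was 2.13 ± 0.15 (limma, adjusted p = 4.99e-10; block 1.69). It rests on 1 probe. *Sgk1*, a kinase induced by glucocorticoids, ran from -2.07 to -1.22 (median -1.77) and then from -0.24 to 0.53 (median 0.15). That is a change of 1.89 ± 0.10 (limma, adjusted p = 3.34e-12; block 1.95), again without overlap. *Psap*, the lysosomal prosaposin, named like the next genes after its values were seen as a large rise of the block fit, ran from -1.48 to -0.06 (median -0.92) and then from -0.0042 to 0.88 (median 0.43), a change of 1.27 (block 0.97). *Idh3b*, *Atp6ap1*, *Norad* and *Rasl2-9* changed by 1.39, 1.30, 1.45 and 1.38 (block 1.06, 1.02, 0.96 and 1.0). *Ly6c1*, an endothelial surface protein, and *Cxcl12*, a chemokine, had larger block values (1.01 and 0.94) than pooled ones (0.54 and 0.49).

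Of 11 cholesterol synthesis genes 6 rose and 0 fell (median 0.19, block 0.35). *Fdft1*, squalene synthase, ran from -0.67 to -0.03 (median -0.33) on P17 and from 0.05 to 0.92 (median 0.71) on P28, with no overlap and a change of 0.94 (block 0.81). *Fdps* and *Idi1* also rose without overlap (0.60 and 0.55), and *Sqle* rose by 0.27 (block 0.47). *Prdx6*, a peroxiredoxin, and *Plpp3*, a lipid phosphatase, rose by 0.72 and 0.77.

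Many neuronal genes were higher in the pooled fit and not with the block. Among the 10 largest pooled rises by the naming rule were *Rgs9bp* (2.15), *Spc25*, *Stx3* (1.93), *Sgk1*, *Gpm6a* (1.88), *Dync1i1* (1.81), *Gad1* (1.76), *Sv2b* (1.73) and *Faim* (1.73). With the block *Rgs9bp*, the anchor of the phototransduction brake RGS9, rose by 0.87, *Gad1*, the GABA-making enzyme, by 0.72, *Dync1i1* by 0.75 and *Faim* by 0.93. The synaptic and membrane genes *Stx3*, *Gpm6a* and *Sv2b* were not called (0.63, 0.35 and 0.32; adjusted p = 0.0711, 0.311 and 0.281). For *Gad1* the P17 arrays ran from 0.86 to 2.59 and the P28 arrays from 1.40 to 3.88: 11 P28 arrays lay above every P17 array and the 2 dim ones did not. On the authors' deposited log2 scale *Gad1* and *Rgs9bp* were at -0.47 and -0.05. In the list of receptors and channels 12 of 17 were higher pooled, and 2 rose in both fits. *Kcnv2* and *Gabrb2* (1.61 and 1.03) were not called with the block. Of 8 neuropeptide genes 7 were higher pooled, and *Cck* (1.43, block 0.70) and *Penk* (1.53, block 0.68) rose in both fits, but *Cck* was lower on the deposited scale (-0.61; limma, adjusted p = 0.0404) and *Penk* was not called there (0.19), while *Pdyn* and *Tac1* (1.29 and 1.14) did not. In the amacrine list 3 of 14 rose. *Tubb2b* and *Dpysl3*, genes of growing neurons, fell by 1.11 and 0.77 on the log2 scale (block -0.95 and -0.65).

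Rod genes were lower in the pooled fit for 12 of 17, and 0 fell in both. *Rom1*, an outer segment protein, was at -2.38 pooled and -0.44 with the block (adjusted p = 0.213). *Nrl*, *Prph2* and *Pde6g* showed the same (-2.31, -2.17 and -2.16), and in the retina channel alone these 4 were higher on P28, by 0.75, 0.65, 0.58 and 0.54. *Pde6b*, a subunit of the rod phosphodiesterase, rose (1.53, block 0.90), but was at -1.30 on the deposited scale. The largest pooled falls that were lost in the same way were *Ulk3* (-4.24, block -0.36), *Zfp457* (-2.69, block -0.03), *Slc35e1* (-2.64, block -0.19), *Smo* (-2.38, block -0.33) and *Timmdc1* (-2.38, block -0.21). *Ulk3* ran from -3.23 to 3.69 on P17 and from -3.70 to 2.84 on P28. Its 2 dim P28 arrays stood at 1.85 and 2.84, and within the dim and the bright arrays the days differed by only -0.37 and -0.35. No resting Mueller glia gene passed both fits (6 of 13 higher pooled). Lens genes were higher pooled for 9 of 13 and called in both fits for 0. They may come from tissue carried over, which was not tested. The summed signal of the lens genes ran from 1474 to 4153 on P17 and from 1248 to 123611 on P28, and its part in other results was not tested.

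**Figure D3:**
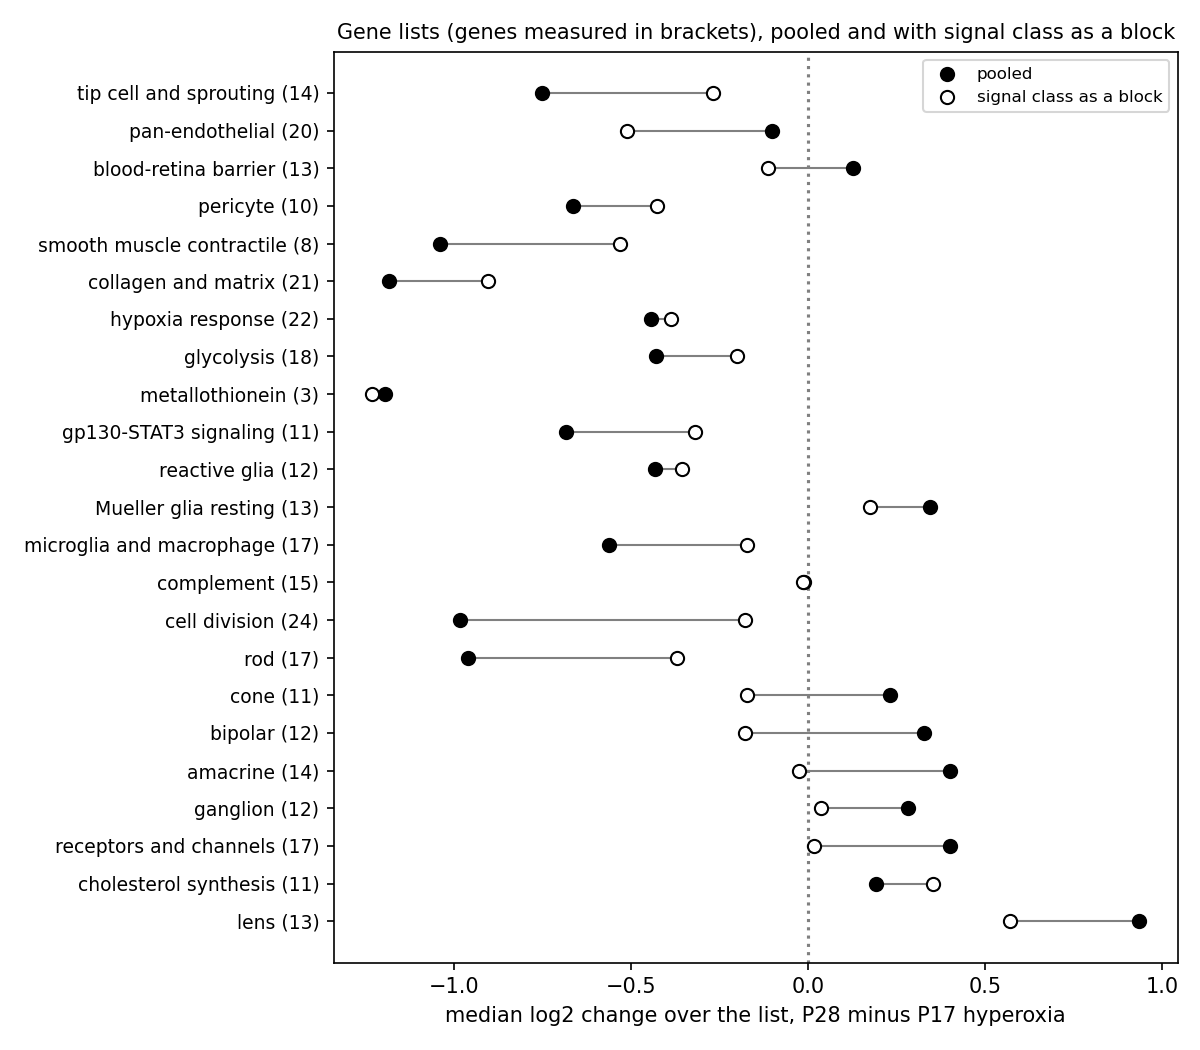
Median log2 change, P28 minus P17 hyperoxia, over the genes of each list (number measured in brackets), pooled (filled) and with signal class as a block (open). The metallothionein median is -1.19 pooled and -1.23 with the block and the matrix median -1.18 and -0.90, while those of cone, bipolar and amacrine genes move from above 0 to below it.

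To see which changes exceeded those of unexposed mice, the change from P17 to P28 was compared between hyperoxia and normoxia in 1 model of all 77 arrays. The hyperoxia arrays in it are those of the comparison above, so the 2 results are given side by side and are not independent. The difference was called for 0.581% of genes, 110 more negative and 13 more positive in hyperoxia, and for 0.794% with the block. The excess of negative differences depended on the setting. Of the called probes (0.278% of all) 12.3% were more positive in hyperoxia, while without the 2 dim P28 arrays 7.22% of probes were called and 51.7% of these were more positive. With array signal as a covariate 49.8% of the called probes were more positive, and with array weights 41.6%, and when arrays were centred on all spots 0 probes were called. Some lists fell in normoxia too. Their median changes there were -0.59 for matrix, -0.32 for smooth muscle, -0.31 for tip cell and -0.26 for pericyte genes. Those of pan-endothelial and hypoxia genes were -0.03 and -0.08. Without the block, a more negative change in hyperoxia was called for 5 of 21 matrix, 1 of 8 smooth muscle, 5 of 14 tip cell and 1 of 10 pericyte genes. *Cd248* changed by -0.97 in normoxia, a difference of -1.92 (limma, adjusted p = 1.35e-06), and *Esm1* by -0.47, a difference of -1.75. *Vegfa* changed by 0.01 and *Ndufa4l2* by -0.16 in normoxia, with differences of -0.80 and -1.24. Differences for *Cd93*, *Egfl7*, *Cd34*, *Apln*, *Fn1*, *Vim*, *Stat3*, *Mt1* and *Mt2* lay between -0.91 and -1.26. The largest positive differences were those of *Spc25* (1.40), *Enpp2* (0.92), *Plpp3* (0.63), *Prdx6* (0.61) and *Mex3c* (0.50). *Enpp2* (autotaxin) and *Mex3c* changed by 0.42 and 0.29 in hyperoxia, not called with the block. For *Serpinh1*, *Adm*, *Col1a1*, *Acta2*, *Sgk1*, *Fdft1* and the neuronal genes named above the difference was not called without the block, and with it only that of *Adm* was (adjusted p = 0.0442). *Sgk1* changed by 1.66 and *Fdft1* by 0.84 in normoxia, and the difference in *Serpinh1* was -0.79 ± 0.25 (limma, adjusted p = 0.196).

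**Figure D4:**
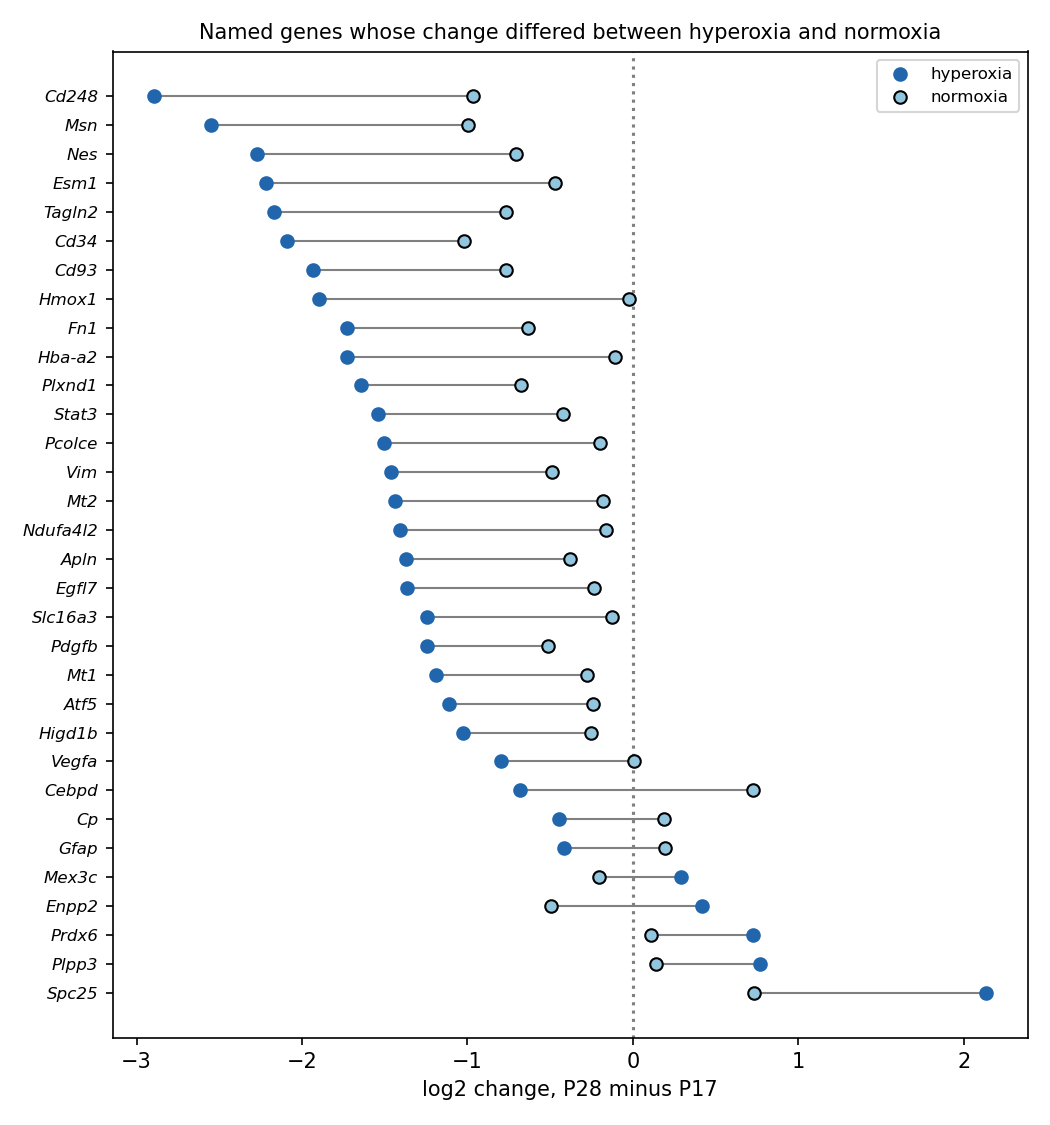
Log2 change from P17 to P28 in hyperoxia (dark blue) and normoxia (light blue) for the named genes whose changes differed. *Cd248* falls by 2.89 in hyperoxia and by 0.97 in normoxia, while *Vegfa* stays at 0.01 in normoxia.

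What remained on P28 was read against P28 normoxia. Of all genes 0.274% differed in the 77 arrays without the block and 0.388% with it. In both fits 54 genes differed, 53 higher (0.251% of 21154) and 1 lower in hyperoxia. The one-sided split depended on the 2 dim P28 arrays: with them 0.149% of probes were called, 94% of these higher, and without them 2.65%, 58.6% higher. These genes were picked after their values were seen. Of the 53, 34 had also been higher on P17, and of these 16 fell between the days in both fits, 12 had no called change in either and 6 were called in 1 fit. The other 19 were not called in both fits on P17, but for 0 of them did the change differ from that in normoxia. Looked at from P17, 253 genes were higher than normoxia on P17 and then fell in both fits, and 16 of them were still higher on P28.

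*C4b*, a complement component, had the largest remaining difference of the 54. It ran from 0.66 to 2.08 (median 1.14) on P17, from 0.79 to 2.20 (median 1.44) on P28, and from -0.41 to 0.24 on P28 in normoxia. All 13 P28 hyperoxia arrays lay above all normoxia arrays of that day, at a difference of 1.58 ± 0.11 (limma, adjusted p = 1.7e-17), and the change from P17 was not called (0.26, adjusted p = 0.23). *Edn2*, endothelin 2, made by photoreceptors under stress, ran from 0.57 to 2.83 on P17 and from 0.75 to 2.61 on P28 (medians 1.71 and 2.09), and was 1.36 above P28 normoxia (limma, adjusted p = 9.55e-10). Its change was not called (0.22), but it was lower on P28 on the deposited values (-1.29; limma, adjusted p = 0.00105) and with a background offset of 0 (-0.77, adjusted p = 0.02). *Antxr2*, a matrix and toxin receptor, was 0.70 above normoxia with a change of -0.03.

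Other genes had come part of the way down. *Pcolce*, the enhancer of procollagen processing, ran from -2.44 to -0.18 (median -1.39) on P17, from -3.71 to -1.71 (median -2.79) on P28 and from -5.05 to -3.22 (median -4.29) in P28 normoxia. It fell by 1.51 on the log2 scale (block -1.25) and was still 1.46 above normoxia (limma, adjusted p = 5.85e-06), higher than the normoxia median on 13 of 13 arrays. *Ndufa4l2* was 2.03 above normoxia on P17 and 0.79 on P28, *Mt2* 2.24 and 0.98, *Fn1* 1.76 and 0.67, and *Tagln2* 1.96 and 0.56. *Mt1* went from 1.44 to 0.52 above normoxia and *Plxnd1*, a semaphorin receptor of endothelium, from 1.42 to 0.45. *Vwf*, von Willebrand factor, was 0.97 and then 0.68 above normoxia, but without the block its change was not called as different from that in normoxia. *Cebpd*, a transcription factor of acute responses, was 2.65 above normoxia on P17 and 1.25 on P28, while its change of -0.68 missed the threshold (limma, adjusted p = 0.0572). *Gfap*, the filament of reactive glia, stood 0.97 and then 0.37 above normoxia, with a change of -0.41 that was not called with the block. *Cp*, ceruloplasmin, was 0.49 above. *Bcl3* was 0.81 above normoxia on P28, called with the block (adjusted p = 0.0035) and not without (limma, adjusted p = 0.0598). *Esm1*, *Cd34*, *Cd93*, *Cd248*, *Egfl7*, *Apln* and *Vegfa* had no called difference from P28 normoxia in either fit, with values between -0.19 and 0.46. The study, which normalized the arrays in other software, listed *Apln* among its most overexpressed retina genes on P28. A missing call does not show a return to the level of normoxia. *Cd93* ran from 0.48 to 1.48 (median 1.13) on P28 in hyperoxia and from 0.27 to 1.05 in P28 normoxia.

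**Figure D5:**
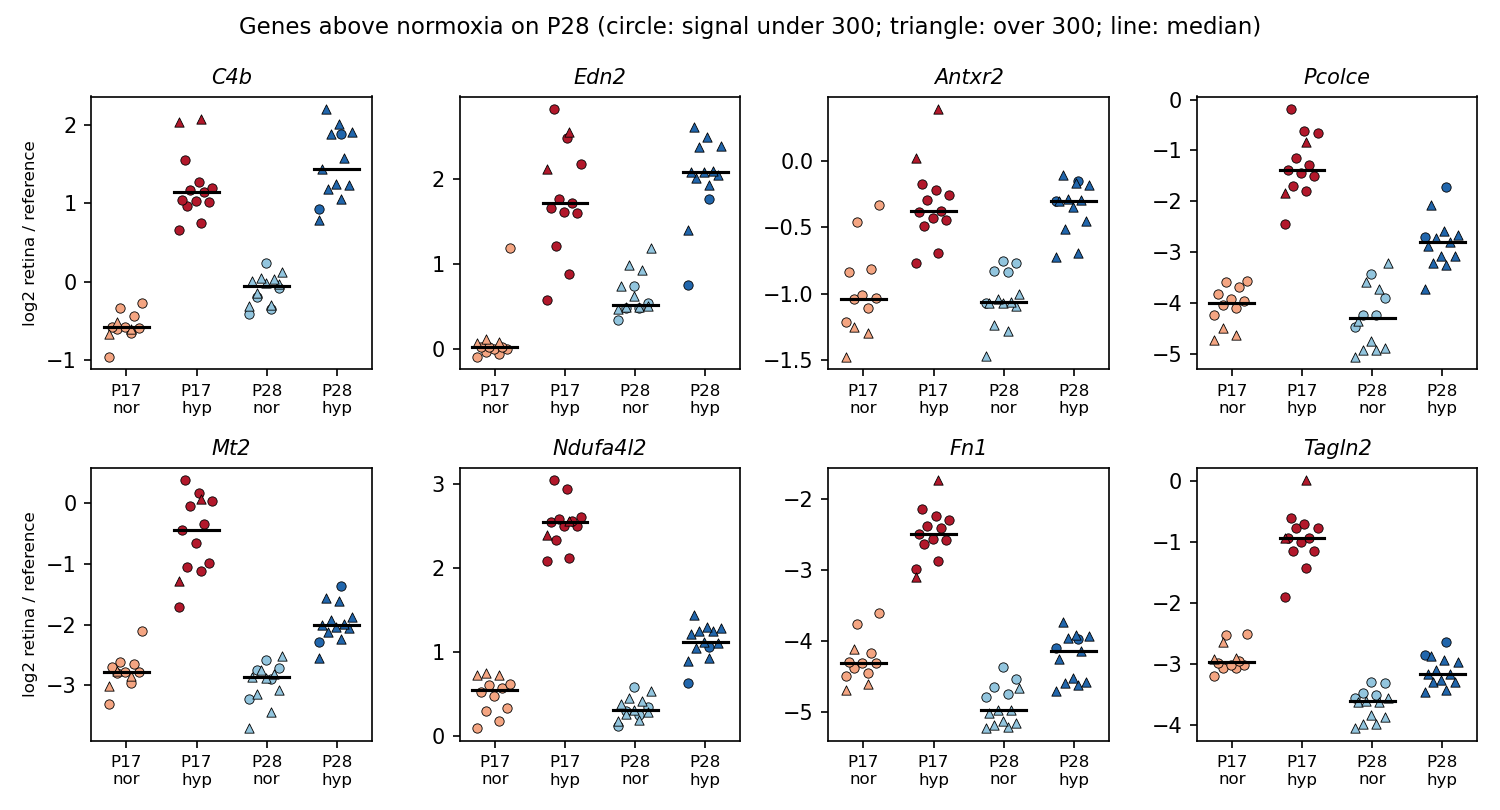
Log2 retina over reference of 8 genes on each array of P17 normoxia, P17 hyperoxia, P28 normoxia and P28 hyperoxia (circles under and triangles over a signal of 300, line at the median). *C4b* and *Edn2* in hyperoxia have P28 medians of 1.44 and 2.09, against 1.14 and 1.71 on P17, while *Pcolce*, *Ndufa4l2*, *Fn1* and *Tagln2* lie between P17 hyperoxia and P28 normoxia.

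Of 28 genes the study names for P17 or P28, 6 rose and 6 fell in both fits. Those that rose were *Spc25*, *Etnppl* (1.01), *Nol4* (0.83), *Tacr3* (0.78), *Gabrb1* (0.43) and *Deptor* (0.23), and those that fell were *Esm1*, *Adm*, *Pcolce*, *Apln*, *Bcl3* and *Tnnt2* (-0.53), a cardiac-type troponin of mural cells. *Kcne1l*, *Kcnd2*, *Cidea*, *Spink13*, *Gpr101*, *Scn11a*, *Crabp1*, *Lyz1*, *Glycam1*, *Lad1*, *Fam219aos* and *Gfap* were called in the pooled fit and not with the block, and *Grip1*, *C4b*, *Edn2* and *Cebpd* in neither. The study chose these genes on these samples.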

How the data were processed

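Retinas of 77 mice were measured on 2-colour Agilent arrays with 62976 spots, and the 26 hyperoxia arrays of P17 and P28 entered the main comparison. The authors scanned the arrays and extracted each spot's intensity with Agilent Feature Extraction 10.7.3.1, per the file headers, whose log ratio is log10 of Cy5 over Cy3. The deposited table holds log2 values that equalled log2 Cy3 over Cy5 of the processed signals within 0.001. Median spot intensity from the deposited scanner files was background-corrected (normexp, offset 50) and loess-normalized within arrays in limma 3.58.1 (R 4.3.3), with outlier-flagged spots left out and spots of a probe averaged. The array's detection flags, deposited as 0 or 1, marked probes well above background. Of 55681 probes 28026 had a symbol, for 21154 genes; the brightest probe stood for a gene. Moderated tests (limma) were adjusted by Benjamini-Hochberg over all probes and called under 0.05. The number of arrays limits the precision. Sex, read from the arrays, was 4 female and 9 male on P17 and 8 female and 5 male on P28 and was tried as a covariate.

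Genes were named by rule: the 10 largest pooled rises and falls among genes well above background on all 13 arrays of the higher group, the study's genes for P17 and P28, up to 4 called members of a list, and the 5 largest differences each way from the normoxia change; others are marked as chosen after their values were seen, and some genes the rule takes in are not reported here. The members and lists were chosen with earlier results of these data known. The fits were tried on simulated data whose noise was independent between arrays, which cannot show how slide or litter effects bear on them. Normalizations, filters, slide, scan session, sex and signal class were varied, some after the data were seen. Promoter windows came from RefSeq GRCm38.p6.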

Additional observations from a re-analysis of the deposited data

Results flagged for a closer look

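For 32 named genes the change from P17 to P28 differed between hyperoxia and normoxia by the interaction term of the 77-array model (limma, adjusted p under 0.05), which is why they are listed here. More negative in hyperoxia were *Cd248* (-1.92), *Hmox1* (-1.88), *Esm1* (-1.75), *Hba-a2* (-1.62), *Nes* (-1.56), *Msn* (-1.55), *Cebpd* (-1.41), *Tagln2* (-1.41), *Pcolce* (-1.30), *Mt2* (-1.26), *Ndufa4l2* (-1.24), *Cd93* (-1.17), *Egfl7* (-1.13), *Slc16a3* (-1.12), *Stat3* (-1.12), *Fn1* (-1.09), *Cd34* (-1.07), *Apln* (-0.99), *Vim* (-0.98), *Plxnd1* (-0.97), *Mt1* (-0.91), *Atf5* (-0.87), *Vegfa* (-0.80), *Higd1b* (-0.77), *Pdgfb* (-0.73), *Cp* (-0.64), *Gfap* (-0.61). More positive were *Mex3c* (0.50), *Prdx6* (0.61), *Plpp3* (0.63), *Enpp2* (0.92), *Spc25* (1.40). With signal class as a block 31 of these 32 calls remained, and that of *Cp* did not (-0.59; limma, adjusted p = 0.062). *Cebpd*, *Cp* and *Gfap* are genes whose fall in exposed mice alone was not called in both fits: *Cebpd* changed by -0.68 in hyperoxia and by 0.72 in normoxia. *Enpp2* changed by 0.42 in hyperoxia and by -0.50 in normoxia.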

How the results depend on the processing

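No paired analysis was possible because mouse numbers are unique and no mouse was sampled on both days. Of 55681 probes 40.2% were called between the days, and of the same number 88.8% under median centring on all spots, 19.1% under only probes well above background on all 26 arrays, 0.0395% under slide as a fixed block, 26.5% under slide as a random block, 3.69% under Bonferroni, 9.42% under the class block, 10% under the class block on deposited values, 7.56% under log2 array signal as a covariate, 17.2% under all 77 arrays with slide as a fixed block, 88.3% under median centring on detected spots, 8.63% under scan session as a block. At least 2-fold were 2.83%, and 9.09% under normexp with offset 0, 18% under deposited values, 17.6% under log ratio of the scanner software, 25.7% under median centring on all spots, 0.0126% under slide as a fixed block, 1.71% under slide as a random block, 4.8% under array weights, 0.717% under Bonferroni, 0.169% under the class block, 0.138% under log2 array signal as a covariate, 0.305% under all 77 arrays with slide as a fixed block, 65.3% under median centring on detected spots, 0.217% under scan session as a block, 1.65% under log ratios scaled between arrays, 4.58% under exclusion of the 2 dim P28 arrays. The change differed from normoxia at 0.278%, and at 0.431% under normexp with offset 0, 0.584% under deposited values, 0.62% under log ratio of the scanner software, 0% under median centring on all spots, 0.97% under retina channel alone, quantile normalized, 0.778% under array weights, 0.0934% under Bonferroni, 0.806% under the class block on deposited values, 1.32% under log2 array signal as a covariate, 0.0413% under median centring on detected spots, 7.22% under exclusion of the 2 dim P28 arrays. On P28 0.149% differed from normoxia, and 0.0844% under normexp with offset 0, 0.271% under slide as a fixed block, 0.233% under slide as a random block, 0.415% under array weights, 0.0395% under Bonferroni, 0.0682% under only the 52 arrays of P17 and P28, 0.266% under the class block on deposited values, 0.295% under log2 array signal as a covariate, 0.0323% under median centring on detected spots, 0.088% under log ratios scaled between arrays, 2.65% under exclusion of the 2 dim P28 arrays. In the reference channel 7.5% were called, and 0.208% under slide as a fixed block, 0.156% under the class block, 0.889% under log2 array signal as a covariate, 11.5% under exclusion of the 2 dim P28 arrays. The 0 under median centring on all spots came beside 1237 probes at an unadjusted p under 0.05 in the same limma fit. Higher calls made up 53% of the pooled calls, 51.5% under centring on all spots, 38.8% with scan session as a block and 41.5% with the class block, while under centring on detected spots 5266 of 49188 calls were higher. Slide as a fixed block compares the days on the 1 slide that holds both, with 3 arrays, so its few calls follow from its construction. The 19.1% counts calls against all 55681 probes. Of the 14289 probes well above background on all 26 arrays, 70.6% were called in the pooled comparison.

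Median centring over all spots was the planned form of that alternative, and centring over detected spots was added after the planned form had been seen to move nearly all bright probes upward. Over genes well above background on all 26 arrays it set the median change at 1.65, against 0.13 in the pooled comparison, and the median of all genes at 0.67. Of the 44 named genes that turned sign under it, 43 stayed on the same side of that median as in the pooled comparison. Centring on detected spots set the all-gene median at -0.86. Named genes turned sign as follows, with the log2 change under each setting. Under median centring on all spots these were *Acta2* 0.14, *Aldoa* 1.43, *Ankrd37* 1.23, *Anpep* 0.39, *Antxr2* 1.27, *Atf5* 0.95, *Bcl3* 0.14, *Cd14* 0.073, *Cd44* 0.28, *Cd68* 0.58, *Cebpd* 1.17, *Cp* 1.35, *Crabp1* 0.70, *Ddit4* 1.61, *Dpysl3* 1.17, *Egfl7* 0.33, *Eno1* 1.24, *Fn1* 0.38, *Gapdh* 1.46, *Gfap* 0.39, *Hba-a2* 0.27, *Itgam* 0.18, *Lyz1* 0.36, *Mcam* 0.58, *Mt1* 1.08, *Mt2* 0.78, *Mt3* 0.71, *Notch3* 0.079, *Pcolce* 0.65, *Plxnd1* 0.066, *S100a6* 0.75, *Slc16a3* 0.75, *Slc2a1* 1.66, *Socs3* 0.46, *Stat3* 0.39, *Tagln* 0.22, *Timmdc1* 0.013, *Tnnt2* 0.47, *Tpm2* 0.033, *Tubb2b* 0.58, *Vegfa* 0.98, *Vim* 0.63, *Vwf* 0.72, *Fbln1* 1.25. Under deposited values these were *Aldoa* 0.14, *Antxr2* 0.14, *C4b* -0.11, *Cck* -0.61, *Cd14* 0.63, *Edn2* -1.29, *Gad1* -0.47, *Grip1* -1.51, *Kcnv2* -0.059, *Kdr* -1.31, *Pde6b* -1.30, *Rgs9bp* -0.046, *Stx3* -0.17, *Sv2b* -0.27, *Optc* -0.26, *Col18a1* -0.055, *Serping1* -0.051. The log ratio of the scanner software turned the same genes as the deposited values, to the same log2 changes. Under retina channel alone, quantile normalized these were *Aldoa* 0.69, *Antxr2* 0.036, *Cd14* 0.24, *Ddit4* 0.0081, *Edn2* -0.29, *Lyz1* 0.019, *Nrl* 0.65, *Pde6g* 0.54, *Prph2* 0.58, *Rom1* 0.75, *Scn11a* -0.0071, *Fbln1* 0.016, *Serping1* -0.0023. Under slide as a fixed block these were *Anpep* 0.35, *Antxr2* 0.22, *Cd44* 0.48, *Cidea* -0.00044, *Glycam1* -0.017, *Gpr101* -0.013, *Grip1* -0.058, *Itgam* 0.13, *Lad1* -0.019, *Lyz1* 0.043, *Mcam* 0.63, *Mex3c* -0.023, *Prph2* 0.0015, *Slc35e1* 0.18, *Smo* 0.22, *Spink13* -0.012, *Tac1* -0.12, *Ulk3* 0.52, *Zfp457* 0.73, *Fbln1* 0.73, *Col18a1* -0.26. Under slide as a random block these were *Antxr2* 0.0027. Under array weights these were *Antxr2* 0.040. Under all 77 arrays with slide as a fixed block these were *Antxr2* 0.15, *Col18a1* -0.11. Under log ratios scaled between arrays these were *Antxr2* 0.094, *C4b* -0.081, *Edn2* -0.33, *Grip1* -0.21, *S100a6* 0.11. Under normexp with offset 0 these were *C4b* -0.13, *Cd14* 0.31, *Edn2* -0.77, *Grip1* -1.16, *Kdr* -0.50, *Pde6b* -0.33, *Col18a1* -0.095. Under the class block these were *C4b* -0.11, *Cd14* 0.17, *Edn2* -0.31, *Glycam1* -0.0043, *Grip1* -0.22, *Kdr* -0.047, *Lad1* -0.019, *Fbln1* 0.18, *Col18a1* -0.24, *Serping1* -0.097. Under log2 array signal as a covariate these were *C4b* -0.080, *Cd14* 0.19, *Edn2* -0.37, *Glycam1* -0.0058, *Grip1* -0.24, *Kdr* -0.080, *Lad1* -0.029, *Fbln1* 0.18, *Col18a1* -0.28, *Serping1* -0.10. Under scan session as a block these were *C4b* -0.10, *Edn2* -0.073, *Grip1* -0.016, *Lad1* -0.016, *Mcam* 0.14, *Slc35e1* 0.038, *Timmdc1* 0.18, *Fbln1* 0.10, *Col18a1* -0.32, *Serping1* -0.11. Under the class block on deposited values these were *Cd14* 0.38, *Edn2* -0.30, *Grip1* -0.34, *Kcnv2* -0.65, *Kdr* -0.39, *Lad1* -0.33, *Mt3* 0.19, *Pdyn* -0.30, *Scn11a* -0.57, *Stx3* -0.21, *Sv2b* -0.47, *Zfp457* 0.20, *Fbln1* 0.34, *Col18a1* -0.26. Under median centring on detected spots these were *Cidea* -0.53, *Ddit4* 0.087, *Deptor* -0.32, *Gabrb1* -0.35, *Glycam1* -1.42, *Gpr101* -0.90, *Grip1* -0.072, *Lad1* -1.21, *Scn11a* -1.24, *Slc2a1* 0.13, *Spink13* -0.65. Under no background subtraction these were *Edn2* -0.043, *Grip1* -0.17. The causes of these changes were not tested. Sex as a covariate, outlier-flagged spots kept, Aquantile normalization, which leaves ratios as they were, and trend and robust estimation turned no sign and changed no call of the named genes. With the class block 47 of them lost their call and 10 turned sign, and with slide as a fixed block 110 lost their call and 21 turned sign, so that of the named genes called in the pooled comparison only *Sgk1* kept its call (1.59; limma, adjusted p = 0.0418). Of the 32 differences from normoxia, 32 lost their call under centring on all spots and 18 under centring on detected spots, and none turned sign under any alternative run.

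Probes dim on most arrays carry little signal over background, and 11 of 13 arrays of each day lie in opposite signal classes, so that with the block the comparison leans on 2 dim P28 and 2 bright P17 arrays.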

Other observations

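Among the 53 genes above normoxia on P28, several matrix and secreted genes were not called in both fits on P17. *Optc*, opticin of the vitreous, was 1.46 above normoxia on P28, *Fbln1*, fibulin 1, 0.99, *Mfap4* 0.80, *Sod3*, the extracellular superoxide dismutase, 0.62 and *Gpx3*, the secreted glutathione peroxidase, 0.59. *Col18a1*, whose fragment is endostatin, and *Serping1*, the C1 inhibitor, were 0.83 and 0.80 above normoxia on P28 and had also been above it on P17 (0.68 and 0.74). For 0 of these 7 genes did the change from P17 to P28 differ from that in normoxia in either fit. They were chosen after their values were seen.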
